A study of Mus musculus with 4 samples.

Results

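The growth of mouse oocytes from the growing to the fully grown stage was followed in mice without a gene deletion, over every gene that reached 5 FPKM in at least 1 of the control libraries. FPKM is a level that sets the fragments of a gene against its transcript length and against all mapped fragments of the library. The rule kept 7661 of the 23235 genes of the deposited table, read from 2 of the 4 libraries. Of these genes, 6859 reached the minimum in both control libraries, 590 in the growing one only and 212 in the fully grown one only. The comparison asks which transcripts change in share while an oocyte grows.

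The study asked what the loss of Dcaf13, a nucleolar protein of ribosome assembly, does to oocytes at each stage. Both control groups carried floxed Dcaf13 alleles (Dcaf13 fl/fl) on a C57B6 background and had no Cre transgene, and both deletion groups carried the same alleles with Gdf9-Cre, a transgene that makes Cre recombinase in oocytes under the promoter of Gdf9. Growing oocytes came from mice 14 days old, and fully grown oocytes from mice 23 days old that had received 5 IU of PMSG, a gonadotropin that stimulates follicles, 48 h earlier. Each group was 1 library made from 10 pooled oocytes by Smart-seq2, which copies whole transcripts from a primer on the poly(A) tail. Stage, age and PMSG therefore cannot be told apart, and neither can the amount of an RNA and the length of its tail. FPKM gives a share of the library, so the RNA content of an oocyte is unknown, and in such pooled samples fewer cells of a type and less RNA per cell cannot be told apart. No difference below has a replicate, an error or a test.

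A growing oocyte transcribes and stores the mRNA and proteins that will carry it through meiosis and the first days of the embryo. It secretes a coat of glycoproteins, the zona pellucida, and sends growth factors of the TGF-beta family, GDF9 and BMP15, to the granulosa cells around it. Near full size the chromatin condenses around the nucleolus and transcription stops, so that later steps rest on stored mRNA that is polyadenylated, translated or destroyed in turn.

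The libraries carried the RNA of oocytes. All 18 oocyte markers stood above 1 FPKM in each of the 4 libraries, with medians of 1221 FPKM in the growing and 960 FPKM in the fully grown control. Of 15 granulosa markers, 7 and 5 reached 1 FPKM, with summed levels of 65.0 and 64.0 FPKM in the growing and fully grown controls and of 31.8 and 51.9 FPKM in the deletion libraries. That sum was led by Esr2, at 28.9 and 35.0 FPKM in controls, and Cyp19a1, at 17.7 and 18.99 FPKM. Inha stood at 6.53 and 2.40 FPKM and Nr5a2 at 5.87 and 3.90 FPKM, while Amh, at 0.213 and 0 FPKM, Foxl2, at 0.367 and 0 FPKM, and Lhcgr, at 0 in both, were at or near 0. No marker of cumulus cells or of theca and stroma reached 1 FPKM, 2 endothelial markers did, led by Pecam1 at 11.6 and 12.3 FPKM, and 1 blood marker did. Dcaf13 itself stood at 96.1 FPKM in the growing and 160.2 FPKM in the fully grown control, a difference of 0.73, against 38.9 and 64.0 FPKM in the deletion libraries.

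Most genes differed little between the stages. The difference in log2(FPKM + 1), fully grown minus growing, had a median of -0.06 over the 7661 genes, and its middle runs from a 25th percentile of -0.32 to a 75th of 0.17. It lay within 0.5 of 0 for 6191 genes, 80.8% of them. Across genes the libraries correlated with a Spearman rho of 0.95 (7661 genes, which are not independent replicates). Genes are called higher or lower here when the difference is at least 1 in size, a rule of size and not a test. By it 85 genes, 1.11%, were higher in fully grown oocytes and 235 genes, 3.07%, were lower, together 4.18%, while 43.9% of genes lay above 0 and 56.0% below. These shares are the background for every group of genes below. The groups were listed with earlier results of these data known, so a share away from the background is a description only. Between 0.9 and 1.1 in size lay 36 genes on the higher side and 135 on the lower side, so many calls sit near the line. The last gene inside was Crabp2 (1.01) on the higher side and Tuba1c (-1.01) on the lower side, and the first outside were Sclt1 (0.999) and Scmh1 (-0.9999).

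**Figure D1:**
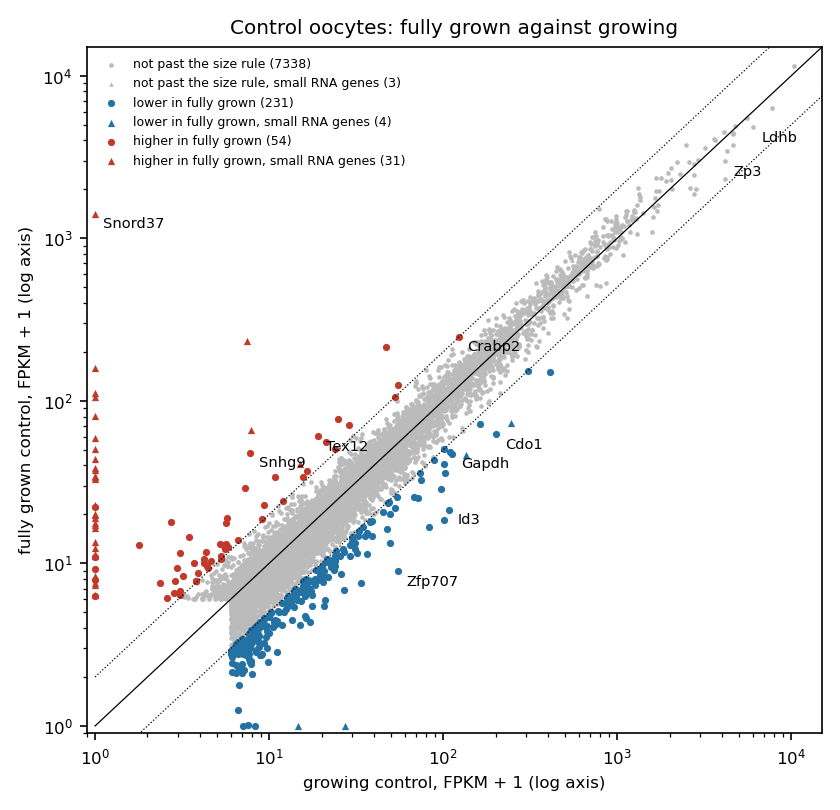
Level of each of the 7661 genes in the growing control library (horizontal, FPKM + 1, log axis) and in the fully grown control library (vertical, FPKM + 1, log axis), 1 library of 10 oocytes each. The solid line marks equal levels and the dotted lines the size rule; 235 genes lie below the lower line, and 28 of the 31 small RNA genes (triangles) above the upper line stand at 0 in the growing library.

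Where a gene stood in abundance went with the side on which it lay. Genes whose higher control level was 5 to 10 FPKM had a median difference of -0.18, with 104 of 1798 (5.78%) lower and 26 (1.45%) higher. By the size rule, each lower gene of this class passed the minimum through the growing library alone. Each higher gene of it passed through the fully grown library alone. This limit covers every called gene named below with a control level under 5 FPKM, among them all whose higher level was under 10 FPKM. It also covers Mrps34, Rpl10l, Yrdc and Gstk1, whose higher control level was above 10 FPKM. At 10 to 20 FPKM the median was -0.12, and at 20 to 100 FPKM it was -0.03, with 54 of 2833 genes (1.91%) lower. From 100 to 1000 FPKM the median was 0.09, and the 106 genes at 1000 FPKM or more had a median of 0.16, with Snord37, a small nucleolar RNA gene, higher and none lower. The deletion libraries gave medians of -0.18, -0.10, -0.01, 0.08 and 0.20 over the same 5 classes. Differences also went with base composition, with a Spearman rho across 7551 genes of -0.31 with the GC content of the transcript in controls and of -0.21 in the deletion libraries, and of -0.04 and 0.06 with its length. The part of GC content in the calls was not tested; removing a fitted trend with GC content and length left 85 higher and 216 lower genes, of which 74 and 185 were among those called here.

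**Figure D2:**
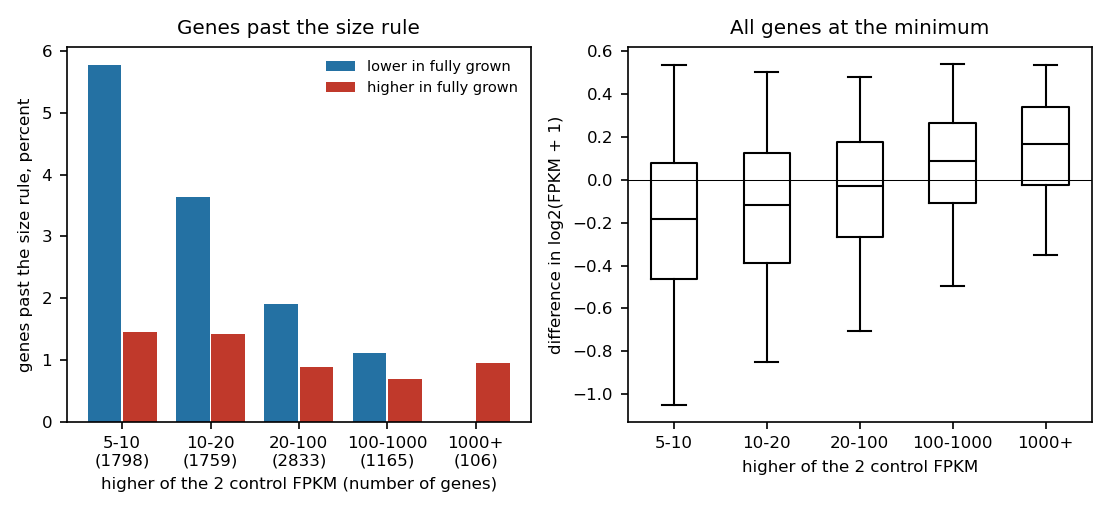
Left, share of genes past the size rule in each direction by the higher of the control levels (FPKM, number of genes in brackets); right, the difference in log2(FPKM + 1) in the same classes, with the median, the quartiles and whiskers from the 5th to the 95th percentile. Lower calls go from 5.78% in the lowest class to none in the highest, and the median goes from -0.18 to 0.16.

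The 15 most abundant coding genes included oocyte genes such as H1foo, Dppa3, Zp3 and Oosp1 and the ribosomal protein genes Rps29 and Rpl41. H1foo, the linker histone of oocytes, stood at 5555 FPKM in the growing and 5519 FPKM in the fully grown control. Dppa3, a maternal factor that guards DNA methylation in the zygote, stood at 4762 and 4907 FPKM. Neither level moved by as much as 0.1 on the log2 scale. Ldhb, the lactate dehydrogenase subunit of oocytes, stood at 6047 and 4797 FPKM (-0.33), and Tmsb10, which binds actin monomers, at 4631 and 3747 FPKM (-0.31). Among the 15 most abundant coding genes the lowest difference was that of Dppa5a, an RNA-binding protein of germ and stem cells, at 4158 and 2324 FPKM (-0.84), short of the rule. The deletion libraries held 4249 and 1968 FPKM of it, so both growing libraries stood above both fully grown ones, which held for 2248 of the 7661 genes (29.3%). The reverse, both fully grown libraries above both growing ones, held for 22.9%. These shares are the background for each such statement below. Genes past the size rule already differ in the control pair by that rule. Of the 235 lower genes 215 had both growing libraries above, and of the 85 higher genes 55 had the reverse.

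The main secreted signals of the oocyte stayed short of the size rule, while 3 genes known to respond to TGF-beta and BMP signals were lower. Among the ligands, Gdf9 stood at 2616.5 FPKM in the growing and 2049 FPKM in the fully grown control (-0.35), and Bmp15 at 759 and 836 FPKM (0.14). Of 6 SMADs, the proteins that carry these signals to the nucleus, 4 reached the minimum, with a median of -0.21 and none past the rule. Of 21 listed target and feedback genes, 8 reached the minimum. All 8 lay below 0 (background 56.0%), 3 were lower (background 3.07%) and none was higher. The median was -0.76 against -0.06 over all genes, and -0.47 with the GC and length trend removed. With no minimum the median over all 21 was -0.30. The list was written with earlier results of these data known, so these shares cannot test the group. The deletion libraries had 7 of these 8 below 0.

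Id3, which binds helix-loop-helix proteins and keeps them off DNA and is a target of BMP signals, led this group. Its level was 106.8 FPKM in the growing and 20.3 FPKM in the fully grown control, a difference of -2.34, and 98.1 and 13.1 FPKM in the growing and fully grown deletion libraries (-2.81). Snai1, a zinc finger repressor, went from 26.1 to 5.90 FPKM (-1.97) in controls and from 36.8 to 5.73 FPKM (-2.49) in the deletion. Tgif1, a homeodomain repressor that binds SMADs, went from 24.99 to 7.58 FPKM (-1.60) and from 31.1 to 3.81 FPKM (-2.74). For each of these genes both growing libraries stood above both fully grown libraries, as for 215 of the 235 lower genes (29.3% of all genes). Gsc, a homeobox gene, stood at 8.004 and 4.15 FPKM (-0.81), and Ski, a corepressor of SMADs, at 90.3 and 54.5 FPKM (-0.72), both short of the rule. Id1, at 1.98 and 1.20 FPKM, and Id2, at 3.24 and 4.78 FPKM, were under the minimum, and the level of Id2 was the higher one in the fully grown library. Inha, which encodes the inhibin alpha subunit and also marks granulosa cells, was lower in controls (6.53 and 2.40 FPKM, -1.15) and lay the other way in the deletion libraries (2.16 and 4.99 FPKM, 0.92); with the GC and length trend removed its control difference was -0.92. The part of granulosa RNA in these values was not tested; the levels of its markers are given above.

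The stretches before the starts of Id3, Snai1 and Tgif1 are shown because these were the listed targets past the rule. Each is the 250 bases before the most upstream start that RefSeq lists on GRCm38.p6, at chr4:136143572-136143821 on the plus strand, chr2:167537945-167538194 on the plus strand and chr17:70853533-70853782 on the minus strand. Tgif1 has 5 listed starts. The authors' table places the genes on mm9, Id3 on chromosome 4 from 135699736 to 135701307, Snai1 on chromosome 2 from 167363726 to 167368311 and Tgif1 on chromosome 17 from 71193544 to 71201074. Capitals mark CANNTG, the E-box letters that helix-loop-helix factors bind.
Id3: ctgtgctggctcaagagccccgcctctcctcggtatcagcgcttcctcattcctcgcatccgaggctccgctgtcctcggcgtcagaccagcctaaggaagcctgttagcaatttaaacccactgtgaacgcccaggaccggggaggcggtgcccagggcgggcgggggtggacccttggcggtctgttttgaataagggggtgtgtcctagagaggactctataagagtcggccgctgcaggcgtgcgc
Snai1: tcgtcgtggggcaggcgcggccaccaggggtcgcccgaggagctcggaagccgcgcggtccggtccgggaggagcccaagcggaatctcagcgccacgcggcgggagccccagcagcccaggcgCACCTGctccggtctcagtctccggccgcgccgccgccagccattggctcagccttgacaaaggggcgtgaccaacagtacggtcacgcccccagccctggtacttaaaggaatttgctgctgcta
Tgif1: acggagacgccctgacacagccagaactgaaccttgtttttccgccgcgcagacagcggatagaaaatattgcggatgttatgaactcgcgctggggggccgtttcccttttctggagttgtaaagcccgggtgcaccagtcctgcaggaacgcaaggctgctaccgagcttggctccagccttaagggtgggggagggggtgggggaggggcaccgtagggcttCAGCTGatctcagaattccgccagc
Id3 held no match, Snai1 1 and Tgif1 1. Of 6164 genes at the minimum with a listed promoter 57.4% held CANNTG, and 66.1% of all 27025 listed promoters did.

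The genes of the zona pellucida and of the oocyte surface split in direction. All 3 zona glycoproteins lay below 0. Zp1 stood at 863 FPKM in the growing and 532 FPKM in the fully grown control (-0.70), Zp2 at 2845 and 1994 FPKM (-0.51), and Zp3 at 4183 and 2964 FPKM (-0.50). Their summed level was 7891 and 5490.5 FPKM in controls and 9357 and 6421 FPKM in the deletion libraries, again with both growing libraries above both fully grown ones, as for each of the 3 genes. Astl, the protease that cleaves ZP2 after fertilization, stood at 181.7 and 98.7 FPKM (-0.87), and Cd9, a membrane protein needed for sperm fusion, at 356 and 231 FPKM (-0.62). On the other side lay a pair of genes of secreted oocyte proteins that lie near each other on chromosome 19. Oosp1 stood at 2481 and 3742 FPKM (0.59), and Gm97, listed by RefSeq as Oosp3, at 781 and 1519 FPKM (0.96). In the deletion libraries Oosp1 stood at 2123 and 3227 FPKM and Gm97 at 503 and 1129 FPKM. Folr4, the egg receptor for sperm IZUMO1, stood at 428 and 476 FPKM (0.15). Of the 8 listed genes at the minimum 3 lay above and 5 below 0, with a median of -0.50, and none was past the rule.

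The promoters of Zp3 and Oosp1 are shown as members of this group that lay on opposite sides. They are the 250 bases before the start on GRCm38.p6, at chr5:135979855-135980104 on the plus strand and at chr19:11691052-11691301 on the minus strand, from RefSeq, with CANNTG in capitals.
Zp3: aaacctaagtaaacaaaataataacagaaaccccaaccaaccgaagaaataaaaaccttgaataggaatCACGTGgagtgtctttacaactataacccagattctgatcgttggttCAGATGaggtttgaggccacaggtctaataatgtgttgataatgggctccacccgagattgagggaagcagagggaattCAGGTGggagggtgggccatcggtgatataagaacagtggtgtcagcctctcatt
Oosp1: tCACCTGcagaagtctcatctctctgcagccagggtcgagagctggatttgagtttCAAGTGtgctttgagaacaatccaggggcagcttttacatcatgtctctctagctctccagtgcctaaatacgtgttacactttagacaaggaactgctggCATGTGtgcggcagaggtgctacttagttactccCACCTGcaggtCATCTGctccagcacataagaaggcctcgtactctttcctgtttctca
Zp3 held 3 matches, which begin at -181, -134 and -55 from the start, and the last of them reads CAGGTG. Oosp1 held 5 matches, of which those that begin at -249 and -59 read CAGGTG on the other strand. Of the 8 listed genes 5 had a listed promoter, and 4 of these held CAGGTG. Of the 6164 promoters of genes at the minimum 16.2% held CAGGTG, which is itself one of the CANNTG forms, and of all promoters 17.1%. CANNTG stood in 28 of 36 promoters of higher genes (77.8%) and in 100 of 181 promoters of lower genes (55.2%), both strands counted. The homeodomain letters TAATTG stood in 4.67% of promoters of genes at the minimum, 11.1% of those of higher and 4.42% of those of lower genes, TGATTG in 15.3%, 27.8% and 14.4%, and GGCGCC in 16.9%, 16.7% and 19.9%. Only 36 of the 85 higher genes and 181 of the 235 lower genes had a listed promoter, so TAATTG stood in 4 promoters of higher genes. The median GC content of promoters was 55.2% for higher genes, 58.8% for lower genes and 59.6% for genes at the minimum. Its part in the shares was not tested. These shares describe letters in a window, with no test.

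Transcription regulators of the oocyte lay on both sides of 0, with factors of early follicle growth below and the clustered Obox genes above. Nobox, a homeodomain factor of follicle growth, stood at 306 FPKM in the growing and 197 FPKM in the fully grown control (-0.63). Figla, the helix-loop-helix activator of zona genes, stood at 133.9 and 83.0 FPKM (-0.68), Lhx8, a LIM homeodomain factor, at 112 and 80.3 FPKM (-0.47), and Tbpl2, the oocyte's own TATA-binding protein, at 23.0 and 11.6 FPKM (-0.93). None was past the rule. For Nobox, Figla and Tbpl2 both growing libraries stood above both fully grown libraries (29.3% of all genes), and for Lhx8, at 153.2 and 112.4 FPKM in the deletion, the groups overlapped. Yy1, a zinc finger regulator, was the only lower gene of the list, at 5.45 and 2.195 FPKM (-1.01), a call that did not hold after rescaling (-0.99). Above 0 lay Obox1 at 830 and 1172 FPKM, Obox2 at 1313 and 2037 FPKM and Obox5 at 1117 and 1475 FPKM, all homeobox genes of a mouse cluster, and Jag1, a Notch ligand, at 181.8 and 273.1 FPKM. Of 30 listed genes 21 reached the minimum, 9 above and 12 below 0, with 1 lower, none higher and a median of -0.37. That median did not keep its sign, since it was 0.04 with no minimum and 0.03 with a minimum of 10 FPKM. The summed level of the list was 6339 and 8184 FPKM, above in the fully grown library through the Obox and Tcl1 genes. Tcl1 and Jag1 are on the list but are not transcription factors, so the sum is not of such factors alone.

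Other families that sit in clusters of similar genes moved little, and members of a cluster can share reads, so single members are uncertain. These families were picked after their values were seen. The 3 Obox genes at the minimum summed to 3260 and 4684 FPKM, and the 6 Tcl1 genes to 3341 and 4475 FPKM, with every member above 0. The deletion libraries gave sums of 2650.2 and 4186 FPKM for Obox and of 3123 and 4221 FPKM for Tcl1. In the F-box genes of the Fbxw cluster 11 of 13 lay below 0, with sums of 8980 and 8476 FPKM. The Nlrp genes divided into 5 above and 6 below 0. None of these genes was past the rule. The full list of clustered oocyte genes, 47 at the minimum, had a median of 0.06, or -0.07 with the GC and length trend removed.

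Maternal effect genes, whose stored products the embryo needs, stayed between -0.56 and 0.60. All 34 in the table reached the minimum, 14 lay above and 20 below 0, and none was past the rule, with a median of -0.11. Padi6, an enzyme of the oocyte's cytoplasmic lattices, stood at 2756 and 1869.9 FPKM (-0.56) in the growing and fully grown control. Zar1, which binds stored mRNA, stood at 1578 and 1085 FPKM (-0.54). Ooep, a member of the subcortical maternal complex with Nlrp5 and Tle6, stood at 2047 and 2689 FPKM (0.39), while Nlrp5 stood at 526 and 410 FPKM (-0.36) and Tle6 at 1293 and 1053 FPKM (-0.30). So subunits of 1 complex lay on both sides of 0.

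Genes that store mRNA and genes that destroy it each held 2 lower genes and none higher, and no difference between the 2 lists was tested. Of the storage and translation list 32 genes reached the minimum, 12 above and 20 below 0 (background 56.0% below), and 2 were lower. The median was -0.16, or -0.09 with the GC and length trend removed, beside -0.06 over all genes. Patl2, an oocyte protein that represses translation, went from 73.4 to 31.4 FPKM (-1.20) in controls and from 87.2 to 27.5 FPKM (-1.63) in the deletion. Its span overlaps that of B2m on the other strand, at 52.4 and 62.5 FPKM in controls. Pabpc1, the general poly(A)-binding protein, went from 19.01 to 8.65 FPKM (-1.05) and from 36.8 to 12.1 FPKM (-1.53). Of the decay list 36 reached the minimum, 23 above (background 43.9%) and 13 below 0, with a median of 0.07 and 2 lower. Those were Tob1, an adaptor of the deadenylase, at 19.6 and 7.42 FPKM (-1.29), and Ythdf1, a reader of methylated adenosine, at 13.9 and 5.73 FPKM (-1.15). Btg4, the adaptor that brings the deadenylase to maternal mRNA, stood at 1668 and 2349 FPKM (0.49), and Cnot7, its catalytic subunit, at 67.5 and 121.7 FPKM (0.84), both short of the rule. In the deletion libraries Btg4 stood at 1299 and 1621 FPKM and Cnot7 at 44.6 and 82.2 FPKM, so each fully grown library stood above its own growing one.

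Transcripts of meiotic resumption genes were present at both stages, and their proteins were not measured. None of the 41 genes of the spindle checkpoint and of the anaphase-promoting complex was past the rule, and they spanned -0.47 to 0.49. Mos, the kinase that holds eggs in metaphase, stood at 850.1 and 778 FPKM, and Ccnb1, cyclin B1, at 456 and 481 FPKM. Of 31 kinases, phosphatases and cyclins at the minimum only Ccne1, cyclin E1, was past the rule, at 8.02 and 3.30 FPKM (-1.07) in controls and 20.8 and 3.90 FPKM (-2.15) in the deletion, and with the GC and length trend removed the control difference was -0.99. Genes of chromosome pairing and cohesion in meiotic prophase included 2 higher ones. Tex12, a central element protein of the synaptonemal complex, stood at 18.04 and 59.8 FPKM (1.68) in controls and 26.6 and 58.6 FPKM (1.11) in the deletion. Both fully grown libraries stood above both growing ones for Tex12, as for 55 of the 85 higher genes (22.9% of all genes). Tex11, a crossover factor, stood at 3.39 and 8.57 FPKM (1.12), and was short of the rule (0.996) with the GC and length trend removed. The 13 prophase and cohesin genes at the minimum had a median of 0.02, and the sign of that median was not kept under every setting.

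Ribosome and proteasome genes lay above 0 more often than the 43.9% of all genes, by small amounts. Of 85 ribosomal protein genes 62 lay above 0, with a median of 0.16 and a summed level of 53662 and 59358 FPKM in the growing and fully grown control. Of 74 mitochondrial ribosomal protein genes 50 lay above 0 with a median of 0.15, of 72 ribosome assembly genes 48 with a median of 0.09, and of 43 proteasome genes 29 with a median of 0.11. None of these lists had a higher gene. In the deletion libraries 56, 42, 40 and 27 of the same genes lay above 0, where the background was 46.2%. With the GC and length trend removed the median was 0.09 for ribosomal proteins and 0.03 for the proteasome. The abundance classes above, which include these genes, also had medians above 0 from 100 FPKM on, and the part of abundance in these shares was not tested.

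Single members of these lists and of the RNA polymerase I and II lists were lower. Of 15 RNA polymerase I genes at the minimum 2 were lower, and of 34 RNA polymerase II genes 1. Mrps34, of the small mitochondrial subunit, stood at 15.1 and 3.74 FPKM (-1.77) in controls and at 28.7 and 5.56 FPKM (-2.18) in the deletion. Ubtf, the factor that activates RNA polymerase I at ribosomal RNA genes, stood at 5.48 and 1.37 FPKM (-1.45), and 13.9 and 1.67 FPKM (-2.48) in the deletion. Bop1, of the large subunit's assembly, stood at 16.4 and 5.75 FPKM (-1.36), Psmd13, of the proteasome lid, at 9.66 and 3.35 FPKM (-1.29), and Ell2, an elongation factor of RNA polymerase II, at 9.97 and 3.24 FPKM (-1.37). For all 5 genes both growing libraries stood above both fully grown libraries, as for 215 of the 235 lower genes (29.3% of all genes). Polr1c, of the RNA polymerase I list, was lower at 17.6 and 8.16 FPKM (-1.03), but not after rescaling (-0.995). Rpl9 at 108.6 and 47.3 FPKM, Rps23 at 304.7 and 150.4 FPKM and Rpl10l at 11.8 and 4.70 FPKM were lower too, Rps23 not after rescaling (-0.98), but such genes share sequence with copies elsewhere, so their values are uncertain.

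Glycolysis and lactate genes lay mostly below 0. Of 32 listed genes 15 reached the minimum, 4 above and 11 below, with 3 lower and a median of -0.25, or -0.16 with the GC and length trend removed, and in the deletion libraries 14 of the 15 lay below 0 (background 53.5%). Ldhc, the lactate dehydrogenase subunit of germ cells, went from 95.8 to 27.9 FPKM (-1.75) in controls and from 121.3 to 20.8 FPKM (-2.49) in the deletion. Slc2a1, the glucose transporter GLUT1, went from 18.2 to 6.89 FPKM (-1.28) and from 22.9 to 10.7 FPKM (-1.03). Gapdh, which has many processed copies and is uncertain for that reason, stood at 112.03 and 46.2 FPKM (-1.26), and at 107.4 and 67.3 FPKM in the deletion. In each of the 3 genes both growing libraries stood above both fully grown libraries, as in 215 of the 235 lower genes (29.3% of all genes). Of 88 oxidative phosphorylation genes 50 lay above 0, with a median of 0.03, which was -0.05 with the GC and length trend removed, and 2 were lower. Uqcrc1, of complex III, stood at 30.1 and 12.3 FPKM (-1.23) in controls and at 66.2 and 13.6 FPKM (-2.21) in the deletion. Cox7a1, of complex IV, stood at 5.38 and 1.87 FPKM (-1.15) in controls and lay the other way in the deletion, at 6.77 and 10.5 FPKM (0.57).

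Genes of sulfur amino acids and redox balance held calls on both sides. Of 25 at the minimum 2 were higher and 3 lower, with a median of -0.12. Cdo1, cysteine dioxygenase, which starts the breakdown of cysteine, stood at 200.9 and 61.5 FPKM (-1.69) in controls and at 200.6 and 31.9 FPKM (-2.62) in the deletion. Gpx1, a glutathione peroxidase, stood at 47.2 and 22.5 FPKM (-1.04, and -0.95 with the GC and length trend removed), and Chac1, which breaks down glutathione, at 6.70 and 2.31 FPKM (-1.22). Rgn, regucalcin, which acts as a gluconolactonase, stood at 27.8 and 69.9 FPKM (1.30) in controls and at 4.18 and 24.6 FPKM (2.30) in the deletion, so each fully grown library stood above its own growing one but the groups overlapped across genotypes. Gstk1, a mitochondrial glutathione transferase, stood at 4.64 and 16.8 FPKM (1.66), and at 4.44 and 28.3 FPKM (2.43) in the deletion.

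Of 21 stress genes at the minimum 15 lay below 0 in controls (background 56.0%), with a median of -0.23 and 2 lower. In the deletion 12 of 21 lay below 0, near the background of 53.5%. Hsf2, a heat shock transcription factor of germ cells, stood at 22.6 and 8.15 FPKM (-1.37), and Chac1, also a target of ATF4, is given above. Hsp90aa1, the most abundant chaperone of the list, stood at 1106 and 945 FPKM (-0.23). Only 3 of 22 immediate early genes reached the minimum, with Ier2 lower at 7.51 and 2.50 FPKM (-1.28). Of 9 p53 and cell death genes at the minimum, Mcl1, a survival factor, was lower at 5.01 and 1.89 FPKM (-1.06), while Bcl2l10, the abundant survival factor of oocytes, stood at 3172 and 3578 FPKM (0.17).

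Chromatin genes mostly held their level. Kdm1b, the histone demethylase that oocytes need to set maternal imprints, was lower, at 87.3 FPKM in the growing and 42.0 FPKM in the fully grown control (-1.04) and at 91.1 and 38.4 FPKM (-1.22) in the deletion. Its partner in imprinting Dnmt3l, a cofactor of DNA methyltransferases, stood at 95.7 and 88.7 FPKM (-0.11), and Dnmt3a at 21.8 and 19.3 FPKM (-0.17). Of 14 DNA methylation genes at the minimum Kdm1b alone was past the rule. None of 31 histone methylation genes and none of 22 histone variants and chaperones was. Of 68 replication histone genes 12 reached the minimum, and Hist1h2ba, a germ cell H2B, was higher at 1.36 and 6.56 FPKM (1.68), as was Hist1h3g at 2.08 and 5.80 FPKM (1.14); replication histones are near-identical copies and their mRNA mostly lacks a poly(A) tail, so these levels are uncertain. Ddx4, the VASA helicase of germ cells, was the 1 lower gene of 17 in small RNA pathways, at 48.5 and 19.2 FPKM (-1.30) in controls and 81.1 and 17.1 FPKM (-2.18) in the deletion.

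The largest decreases among named genes at 20 FPKM or more were of mixed function. Zfp707, a zinc finger protein, had the lowest difference, at 54.0 and 7.95 FPKM (-2.62) in controls and 57.3 and 5.31 FPKM (-3.21) in the deletion. After Id3 came Gimap1, a GTPase known from lymphocytes, at 81.6 and 15.8 FPKM (-2.29), and Fxyd6, a regulator of the sodium pump, at 48.4 and 12.3 FPKM (-1.89). Yrdc, an enzyme of tRNA modification, stood at 20.1 and 4.96 FPKM (-1.82), and Hsd17b10, a mitochondrial dehydrogenase, at 35.6 and 10.4 FPKM (-1.68). Il1f9, a cytokine of the interleukin-1 family, stood at 46.3 and 15.3 FPKM (-1.54), and Aplf, a DNA repair factor that binds histones, at 100.7 and 35.2 FPKM (-1.49). All 12 genes of this group, which also holds Snai1, Ldhc, Cdo1 and Tgif1, were lower by the size rule in the deletion libraries too, where 6.57% of the 7661 genes were.

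Among the increases 11 genes met the rule for naming, with differences from 1.01 to 2.62, against -1.49 to -2.62 for the 12 decreases. Snhg9, a noncoding host gene of a small nucleolar RNA, stood at 6.80 and 47.0 FPKM (2.62) in controls and at 19.96 and 31.4 FPKM (0.63) in the deletion. Thg1l, an enzyme that adds a guanosine to histidine tRNA, stood at 9.74 and 32.9 FPKM (1.66) and at 13.02 and 44.8 FPKM (1.71). Mef2b, a MADS-box transcription factor, stood at 20.1 and 55.2 FPKM (1.41), against 43.1 and 46.6 FPKM (0.11) in the deletion. Aldh1a2, which makes retinoic acid, stood at 23.0 and 49.8 FPKM (1.08), and Crabp2, which carries retinoic acid to its receptor, at 122.1 and 247.4 FPKM (1.01). The deletion libraries held 8.64 and 24.6 FPKM of Aldh1a2 and 101.5 and 148.9 FPKM of Crabp2. Ppil3, a prolyl isomerase, stood at 53.7 and 123.4 FPKM (1.19), Nhedc1, a sodium/proton exchanger that RefSeq lists as Slc9b1, at 15.4 and 36.0 FPKM (1.17), and Sepsecs, which makes selenocysteine on its tRNA, at 10.98 and 23.3 FPKM (1.02). Fam25c stood at 14.6 and 32.9 FPKM (1.12) but at 20.4 and 16.7 FPKM (-0.27) in the deletion, the only one of the 11 on the other side there. With the GC and length trend removed, Fam25c (0.92), Sepsecs (0.97) and Crabp2 (0.90) were short of the rule. In all, 6 of the 11 were past the rule in the deletion libraries, where 2.47% of the 7661 genes were higher.

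**Figure D3:**
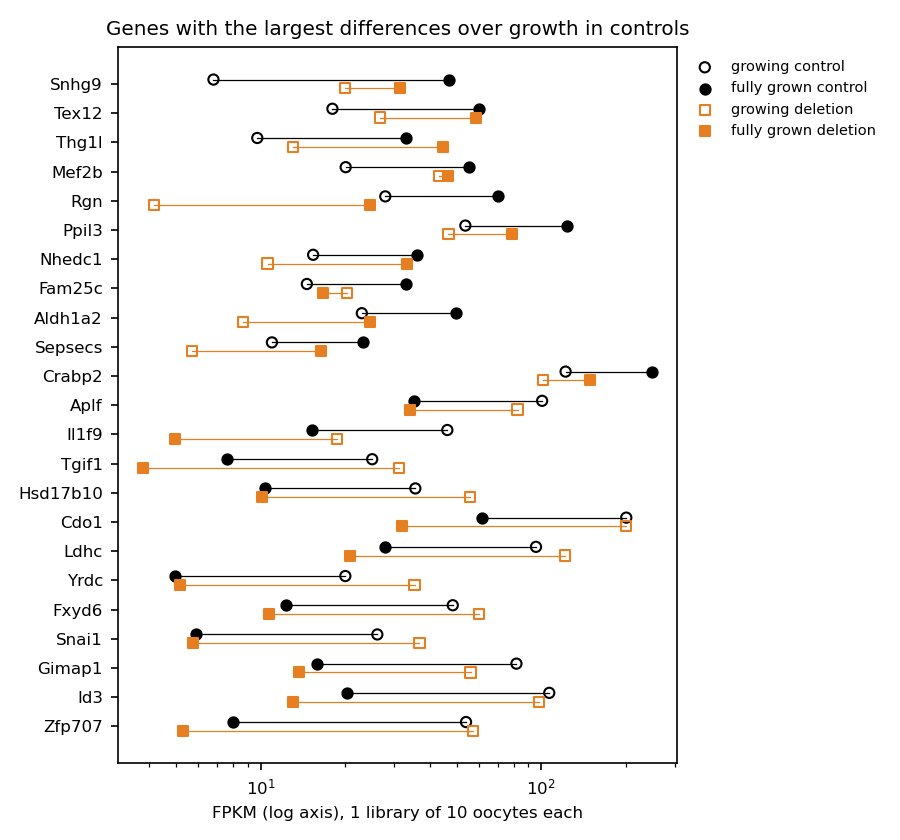
Level (FPKM, log axis) of the 11 largest increases and 12 largest decreases by the naming rule, in the growing (open) and fully grown (filled) libraries of controls (black circles) and of the deletion (orange squares), 1 library each. All 12 decreases point the same way in both pairs, and Fam25c alone of the increases does not.

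Small RNA genes, taken by their symbols, made up much of the higher side and are set apart. Of 38 snoRNA, scaRNA and microRNA genes at the minimum, 31 of the 85 higher calls and 4 of the 235 lower calls came from them, and 28 of those 31 were listed at 0 in the growing control. Only 2 of 114 snoRNA and scaRNA genes, guides of RNA modification, were above 0 in the growing control and 25 in the fully grown one, with sums of 7.3 and 2210.3 FPKM; in the deletion libraries 9 and 17 were above 0, with sums of 73.5 and 1826 FPKM. Of the 21 of them at the minimum, 20 were listed at 0 in the growing control and passed through the fully grown library, so that these had to be higher; the other was Snora47. Snord37 alone held 1414 FPKM in the fully grown control and 1380.3 FPKM in the fully grown deletion library, and was listed at 0 in both growing libraries. Snord83b, at 110.6 FPKM, and Snord100, at 105.1 FPKM, were above 0 in the fully grown control alone. Snora47 stood at 6.42 and 233.4 FPKM in controls and 10.6 and 124.0 FPKM in the deletion.

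The genes that hold these snoRNAs were not past the rule. Of the 21, 20 lie within another gene by the table's mm9 coordinates, on the same strand, in 18 host genes. The hosts spanned -0.89 to 0.60 with a median of 0.13. Snord37 lies in Eef2, elongation factor 2, at 46.5 and 43.1 FPKM (-0.11), Snora47 in Zbed3 at 4292 and 3457 FPKM (-0.31), and Snora21 in Rpl23 at 220.3 and 334.5 FPKM (0.60). Snora21 itself was listed at 0 and at 49.3 FPKM in controls. The median length of snoRNA genes was 94 bases, they carry no stable poly(A) tail, and FPKM of such short genes turns few fragments into large values; the part of this in their levels was not tested.

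The deletion libraries, which share no library with the controls, placed most called genes on the same side. Without the small RNA genes, 223 of 231 lower genes (96.5%) lay below 0 there, where 53.5% of all 7661 genes did, and 163 of them were past the rule, where 6.57% were. Of 54 higher genes 46 (85.2%) lay above 0, where 46.2% did, and 22 were past the rule, where 2.47% were. Small RNA genes were left out by symbol, so the 54 still hold 1 snRNA gene and 1 snoRNA gene. Both were listed at 0 in the growing control, as were 2 protein-coding genes and 1 gene without a RefSeq entry among the 54. All of these had to be higher. Of the 31 higher small RNA genes 12 lay above 0, and the median of the 31 there was 0. The 21 snoRNA and scaRNA genes among the 31 had 10 above 0 and 1 below, and the others had no difference. The median of the 231 lower genes was -1.22 in controls and -1.43 in the deletion, and that of the 54 higher genes 1.29 and 1.12. The deletion pair differed from the control pair in genotype but shared its ages and its PMSG treatment.

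**Figure D4:**
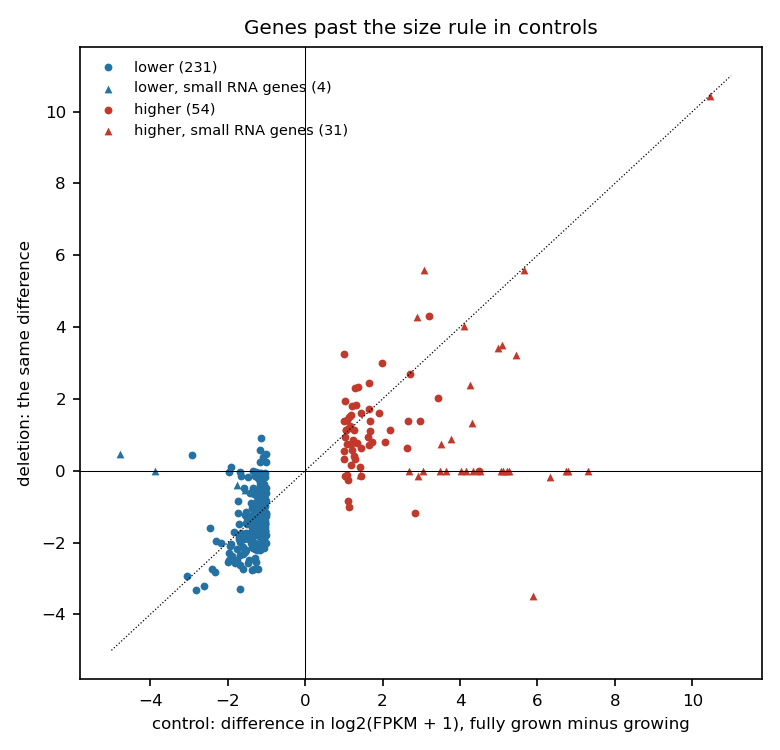
Difference in log2(FPKM + 1), fully grown minus growing, of the 320 called genes in controls (horizontal) and in the deletion libraries (vertical), with small RNA genes as triangles and the line of equal differences dotted. The lower genes gather in the lower left, 223 of 231 below 0 in the deletion. Of the 31 higher small RNA genes 12 lie above 0 there, and the median of the 31 is 0.

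The cytoskeleton and sterol lists showed single calls. Of 38 tubulin, actin and centrosome genes at the minimum 14 lay above and 24 below 0, with Tuba1c alone past the rule at 100.3 and 49.5 FPKM (-1.01, and -0.97 after rescaling), and Actg1, a cytoplasmic actin, at 179.3 and 95.6 FPKM (-0.90). Of 15 cholesterol genes Pmvk, phosphomevalonate kinase, was lower at 7.76 and 2.57 FPKM (-1.30). Of 12 genes that hold oocytes in arrest through cyclic AMP none was past the rule, and Gpr3, the receptor that keeps cyclic AMP high, stood at 19.1 and 16.7 FPKM. Of 8 receptors and junction genes none was past the rule either, and Kit, the receptor for granulosa Kit ligand, stood at 83.6 and 68.8 FPKM (-0.28).

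**Figure D5:**
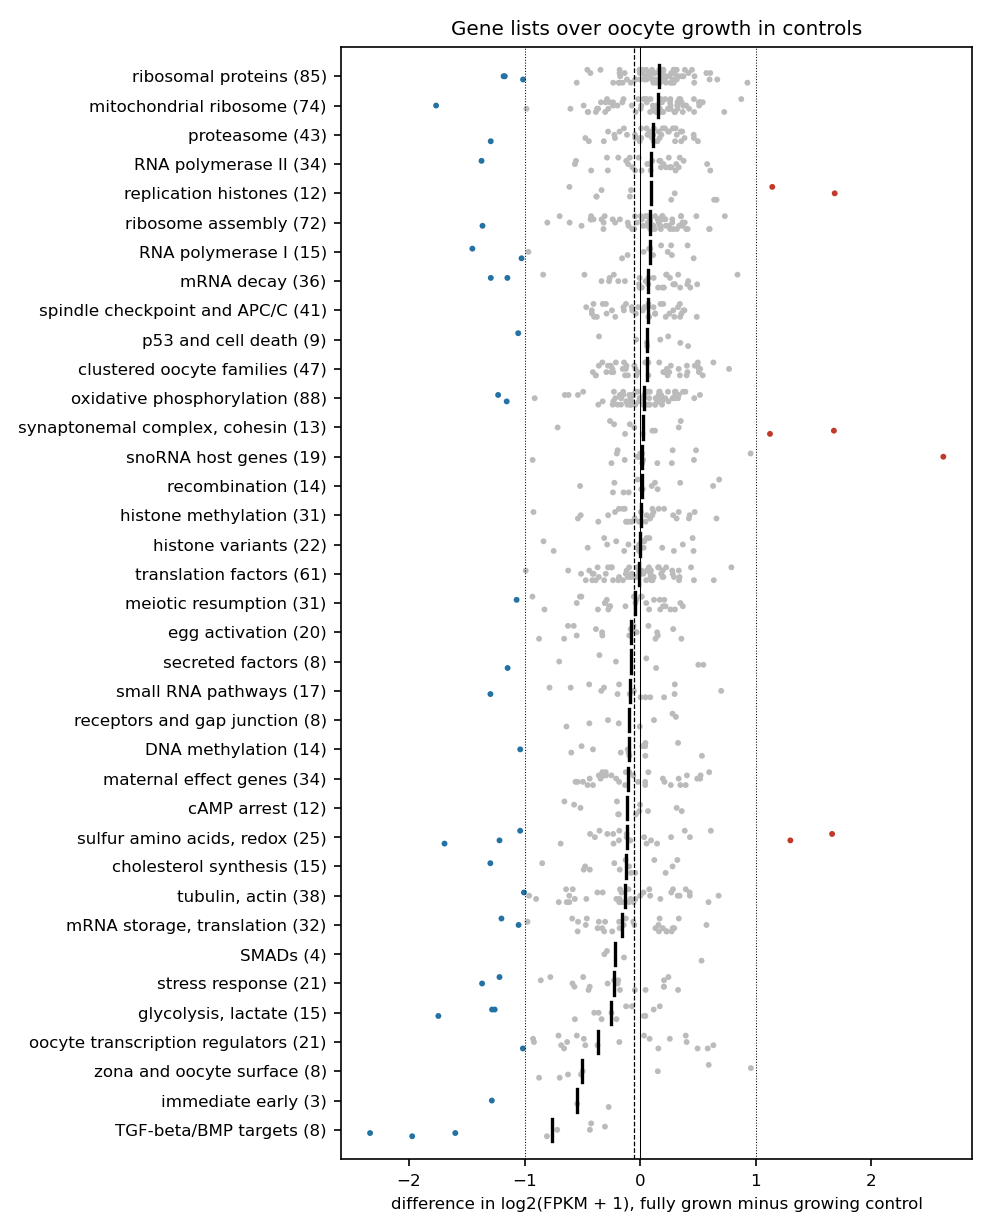
Difference in log2(FPKM + 1), fully grown minus growing control, of each gene of 37 lists (number at the minimum in brackets), ordered by the list's median (black bar), with higher genes in red and lower genes in blue. The dashed line is the median of all 7661 genes (-0.06) and the dotted lines the size rule; list medians run from -0.76 for TGF-beta and BMP targets to 0.16 for ribosomal proteins.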

How the data were processed

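Polyadenylated RNA of mouse oocytes was measured in 4 libraries, 1 per group. The deposited values are FPKM computed by the authors, and the submitters' processing notes list the build mm9 with Cufflinks 2.2.1, Bowtie2 2.1.0, TopHat2 2.0.11 and CASAVA 1.8. Not given in the sources used here were the gene models, the use of strand and the treatment of multiply matching reads. Sequencing depth is unknown, so no interval for counting error was given.

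In the deposited table symbols and values run in different sort orders. Symbols sorted in byte order were paired with the value rows in file order; 4113 rows keep their symbol. Re-pairing took the median level of 18 oocyte markers from 15.6 to 1073 FPKM, and the smallest values of low genes correlated with transcript length at a Spearman rho of -0.18 before and -0.36 after it. The pairing was inferred from the values themselves.

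Differences were computed in log2(FPKM + 1), with a pseudocount of 1, which understates the change of low genes, over genes at 5 FPKM or more in either control library. Genes with a difference of at least 1 in size were called higher or lower. With 1 library per group no test was run. The scripts were tested on simulated data. Genes were named by rule: up to 12 largest changes per direction at 20 FPKM or more, without predicted, clone-named, small RNA genes and pseudogenes; the 15 most abundant coding genes; per list of 38 up to 4 called per direction and the 4 most abundant; the 3 most abundant markers of each cell type; and Dcaf13. Other genes with values were chosen after their values were seen. The members and lists were chosen with earlier results of these data known. Promoters are from RefSeq on GRCm38.p6, and 5 motifs were searched on both strands. They were the E-box CANNTG, its form CAGGTG, the NOBOX-type letters TAATTG, the LHX8-type letters TGATTG, and the GC-rich SMAD-type letters GGCGCC. Overlaps of genes were read from the deposited mm9 coordinates. Python 3.11.15, pandas 2.3.3, NumPy 2.4.6, SciPy 1.17.1 and matplotlib 3.10.9 were used. Alternatives changed the pseudocount, the minimum, the scaling, a trend with GC content and length, the small RNA genes and the pairing.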

Additional observations from a re-analysis of the deposited data

How the results depend on the processing

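No paired analysis was possible because each group holds 1 library. Counts of called genes moved with the floor and the pseudocount; these alternatives change how much low genes count by construction. The higher genes, 85 as reported, numbered 53 with a pseudocount of 5, 54 without small RNA genes and 133 with no minimum. The lower genes, 235 as reported, numbered 53 with a pseudocount of 5, 131 with a minimum of 10 FPKM and 425 with no minimum. Rescaling by the median ratio of 0.976 shifted all genes by 0.03 and gave 95 higher and 219 lower genes; Yy1 (-0.99), Polr1c (-0.99), Rps23 (-0.98) and Tuba1c (-0.97) then fell short of the rule. With the GC and length trend removed, Fam25c (0.92), Sepsecs (0.97), Crabp2 (0.90), Inha (-0.92), Yy1 (-0.93), Ccne1 (-0.99), Tex11 (0.996), Polr1c (-0.99), Gpx1 (-0.95) and Tuba1c (-0.84) were the 10 named genes short of it, and Dppa5a (-1.08) passed it. With a pseudocount of 5, 29 of 221 named genes fell short. With the pairing as deposited, the rows of these genes hold other values and the sign turned for Aldh1a2 (-0.0007), Yrdc (0.30), Ldhc (0.14), Polr1c (0.24), Rpl9 (0.0515), Rps23 (0.0732), Bop1 (0.13), Cox7a1 (0.28), Mrps34 (0.0374) and Hsf2 (0.16). Apart from that pairing, list medians kept their sign for the zona genes (-0.50 to -0.41), TGF-beta and BMP targets (-1.60 to -0.30), glycolysis (-0.26 to -0.08), ribosomal proteins (0.09 to 0.20) and the proteasome (0.03 to 0.15), and not for the oocyte transcription regulators (-0.38 to 0.04) or oxidative phosphorylation (-0.05 to 0.07).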

Other observations

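Of 232 genes of the X chromosome at the minimum, 7 (3.02%) were higher and 12 (5.17%) lower in fully grown control oocytes, against 1.11% and 3.07% over all genes. Both sets of shares count small RNA genes, which made up 31 of the 85 higher calls over all genes. The X chromosome shares without small RNA genes were not computed. Zinc finger genes named Zfp, of which 120 of 340 reached the minimum, held 6 lower and no higher genes, with 57 above and 63 below 0 in controls and 40 above and 80 below in the deletion libraries. Solute carrier genes held 2 lower and no higher genes among 88, with 26 above and 62 below 0 and a median of -0.18, and 34 above and 54 below in the deletion. Proteasome core genes, of the alpha and beta rings, lay above 0 in 13 of 14 cases in controls and in 11 of 14 in the deletion, with Psmb5 the exception in controls at 172 and 123.6 FPKM. These groups were picked by name or chromosome after their values were seen, and no difference between them and other genes was tested.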
